A study of Mus musculus with 4 samples.

Results

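The granule proteases of mast cells were examined in CD45+ immune cells from control mouse skins and from skin tumors, together with the receptor and the histamine enzyme that mark the same cells. The list held 7 of the 31053 genes of the libraries: the chymases Mcpt4 and Cma1, the tryptase Tpsb2, carboxypeptidase A3 (Cpa3), the protease Mcpt8, the stem cell factor receptor Kit and histidine decarboxylase (Hdc). The genes were listed by name, with earlier results of these data known. Mast cells of connective tissue store chymases, tryptases and Cpa3 in secretory granules, bound to heparin chains on the proteoglycan serglycin, and release them with histamine when IgE receptors or other receptors are triggered. Kit binds stem cell factor, on which mast cells depend for survival in the skin, and Hdc makes histamine from histidine. Mcpt8 is a protease typical of mouse basophils.

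The 2 control skins came from C57/BL6 animals that had not been inoculated. The skin tumors were 2 growths from the 2323 cell line, which was derived from a mouse model of skin tumors and injected into the flank of C57BL/6 mice of both sexes aged 8 to 10 weeks, with tumors taken after 2 weeks. The age of the control mice is not given in the sources used here. The 2323 line is a single line and its grafts are transplants, so the 2 tumors share their tumor cells, and the host immune cells are those of a normal mouse. Cells were freed with collagenase at 37 °C and sorted as live CD45+ cells, and each sample gave 1 droplet library of 3' RNA counted as unique molecular identifiers (UMIs), 1 per captured RNA molecule. Separate animals are implied by the labels for the libraries of a group but not stated, so the spread between libraries may be partly technical.

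The libraries held between 34893543 and 73904272 UMIs, and 12395 of 14795 cells were used after filters and removal of doublets. A mast cell was taken as a cell with at least 5 Mcpt4 UMIs per 10,000 UMIs. In a cell near the minimum of 1000 UMIs, 1 Mcpt4 UMI was enough to pass. Each library had gated cells without a UMI of Cma1, Tpsb2 or Cpa3, and these were kept. A Cma1 UMI was found in 95.2 and 90.6% of gated cells in the controls and in 88.9 and 93.8% in the tumors. This gate held 174 cells, with 42 and 64 cells in the controls and 36 and 32 cells in the tumors. A total of 23 barcodes occurred in more than 1 library, and 0 of them among gated cells. The 2 tumor libraries had 153286 and 163011 UMIs in gated cells against 416818 and 425010 in the control libraries, so that counting error is larger in the tumors. At the border, the cells just inside the gate held between 5.41 and 5.89 Mcpt4 UMIs per 10,000 as the lowest of each library, and the highest cells outside held between 4.11 and 4.96.

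The mast cell label was checked against markers that did not set the gate. All 10 of them (Gata2, Ms4a2, Fcer1a, Slc18a2, Il1rl1, Cyp11a1, Hs3st1, Mrgprb1, Mrgprb2 and Tpsab1) had at least 1 UMI in the gated cells of each library. Their summed level was 18.8 and 29.3 UMIs per 10,000 in the controls and 80.8 and 63.6 in skin tumors. Of 10 macrophage markers, 10 and 10 were found in the controls and 9 and 10 in the tumors, at 18.1, 32.4, 8.94 and 22.8. The presence and summed level of a list thus do not set the label apart in control skin. A clustering built without the 7 genes placed 144 of the 174 gated cells in 1 mast cell cluster, and 145 passed a second gate made of genes outside the list. Of the 30 gated cells elsewhere, 20 came from control skins, among them 5 in Langerhans-like and 5 in cDC2-like clusters. Gated cells made up 1.79 ± 0.485% of the used cells in control skin and 1.21 ± 0.599% in skin tumor (SD, n = 2 libraries per group), and the difference did not exceed the spread between libraries (two-sided exact permutation test, p = 0.667, where 0.333 is the smallest p that 2 against 2 libraries allow).

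The protease genes lie in 3 places of the mouse genome (GRCm38, coordinates from the GENCODE annotation). Cma1 (ENSMUSG00000022225, chr14:55941451-55944675), Mcpt4 (ENSMUSG00000061068, chr14:56059629-56062313) and Mcpt8 (ENSMUSG00000022157, chr14:56082166-56085273) stand in 1 cluster of serine protease genes on the minus strand, which also holds cathepsin G (Ctsg). Tpsb2 (ENSMUSG00000033825, chr17:25366305-25369098) is next to the second tryptase gene Tpsab1, and Cpa3 (ENSMUSG00000001865, chr3:20215620-20242181) stands alone. Kit (ENSMUSG00000005672) lies at chr5:75574916-75656722 and Hdc (ENSMUSG00000027360) at chr2:126593667-126619299. All of them are protein coding, and the counts cover whole genes, so no exon or UTR can be singled out. Near-identical copies could take some of the counts: 12.2% of the 31-base words of the longest Mcpt4 transcript, and 19.5% of those in its last 400 bases, occur in another gene, mostly Cma2. The shares were 10.6% and 25.7% for Cma1, all of the first with Gm48934, so the levels of both chymases are uncertain to that extent. Tpsb2 shared 0.715% with Tpsab1 and 0 in its last 400 bases, and Cpa3, Mcpt8 and Kit shared 0.

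The promoters of the 3 proteases with a match to GATAA, the core of the sites that GATA factors bind, are shown because these genes were expressed together in the same cells. Each run holds the 250 bases before the RefSeq start (GRCm38.p6), 5′ to 3′ on the strand of the gene, with GATAA or its reverse complement TTATC in capitals.
Mcpt4 (chr14:56062311-56062560, minus strand): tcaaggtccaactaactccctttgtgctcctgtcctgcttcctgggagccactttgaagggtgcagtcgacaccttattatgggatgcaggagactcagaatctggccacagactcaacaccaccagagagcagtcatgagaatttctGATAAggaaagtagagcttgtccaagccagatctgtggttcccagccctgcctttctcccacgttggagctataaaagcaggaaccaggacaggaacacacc
Cma1 (chr14:55944676-55944925, minus strand): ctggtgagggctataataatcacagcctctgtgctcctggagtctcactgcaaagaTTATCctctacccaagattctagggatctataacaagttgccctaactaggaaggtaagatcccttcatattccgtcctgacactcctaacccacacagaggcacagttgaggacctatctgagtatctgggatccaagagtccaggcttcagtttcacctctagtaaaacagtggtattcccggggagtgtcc
Cpa3 (chr3:20242182-20242431, minus strand): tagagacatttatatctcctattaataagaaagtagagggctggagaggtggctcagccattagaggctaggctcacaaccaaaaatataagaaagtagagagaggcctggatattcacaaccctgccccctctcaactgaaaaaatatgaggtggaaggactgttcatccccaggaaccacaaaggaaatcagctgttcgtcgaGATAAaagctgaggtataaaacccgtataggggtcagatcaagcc
The match began 102 bases before the start in Mcpt4, 194 in Cma1, where it stood on the reverse strand, and 45 in Cpa3. The same windows of Mcpt8, Kit and Hdc held none of these letters, and Tpsb2 is named only. Of 32851 promoters of the same length, 7418 (22.6%) held the motif on either strand, so 3 of 6 is a description of letters and no site is claimed.

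Per UMI, Cma1 was higher in tumor than in control mast cells and passed the test, while Mcpt4, which set the gate, is only described. The median gated cell held 6115.5 and 4420 UMIs over all genes in the controls and 3436 and 4258.5 in skin tumors. A higher level per UMI need not be a higher count per cell. The 42 and 64 gated control cells held 4063 and 5576 Mcpt4 UMIs, and the 36 and 32 tumor cells 3967 and 3027. For Cpa3 these counts were 2151 and 2891 against 1457 and 1307, and for Cma1 3007 and 4516 against 4026 and 3891. Per gated cell, Mcpt4 thus overlapped between the groups, Cpa3 was lower in both tumors and Cma1 higher. Counts per cell were not tested. Mcpt4, which cleaves extracellular matrix proteins and is the main chymase of mouse connective tissue mast cells, set the gate, so its values in gated cells are given as a description. It stood at 97.5 and 131 UMIs per 10,000 in the controls and at 259 and 186 in the tumors. Both tumors lay above both control skins (114 ± 23.8 against 222 ± 51.7, SD, n = 2 libraries each), with a fitted log2 fold change of 1.24 (SE 0.29). The lower part of the gated range was filled differently, with 17 and 16 control cells and 1 and 8 tumor cells between 20 and 100 Mcpt4 UMIs per 10,000. The highest cells overlapped, at 564 and 611 in the controls and 601 and 521 in the tumors.

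Cma1, the mouse counterpart of human chymase by position and sequence, was at 72.1 and 106 UMIs per 10,000 in the controls and at 263 and 239 in the tumors. The groups did not overlap (89.2 ± 24.1 against 251 ± 16.9). The ratio of these means was 2.81. The fit, which also scales the libraries against each other, gave a 3.40-fold rise. Its log2 fold change was 1.77 (SE 0.28, edgeR quasi-likelihood test, adjusted p = 0.0271 over 4378 genes tested). Among all genes tested in gated cells, 4.89% passed in either direction, 2.63% as higher and 2.26% as lower in skin tumor. The median gated cell held 41.9 and 51.7 Cma1 UMIs per 10,000 in the controls and 249 and 196 in the tumors, so the middle cell was higher as well as the sum.

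**Figure D1:**
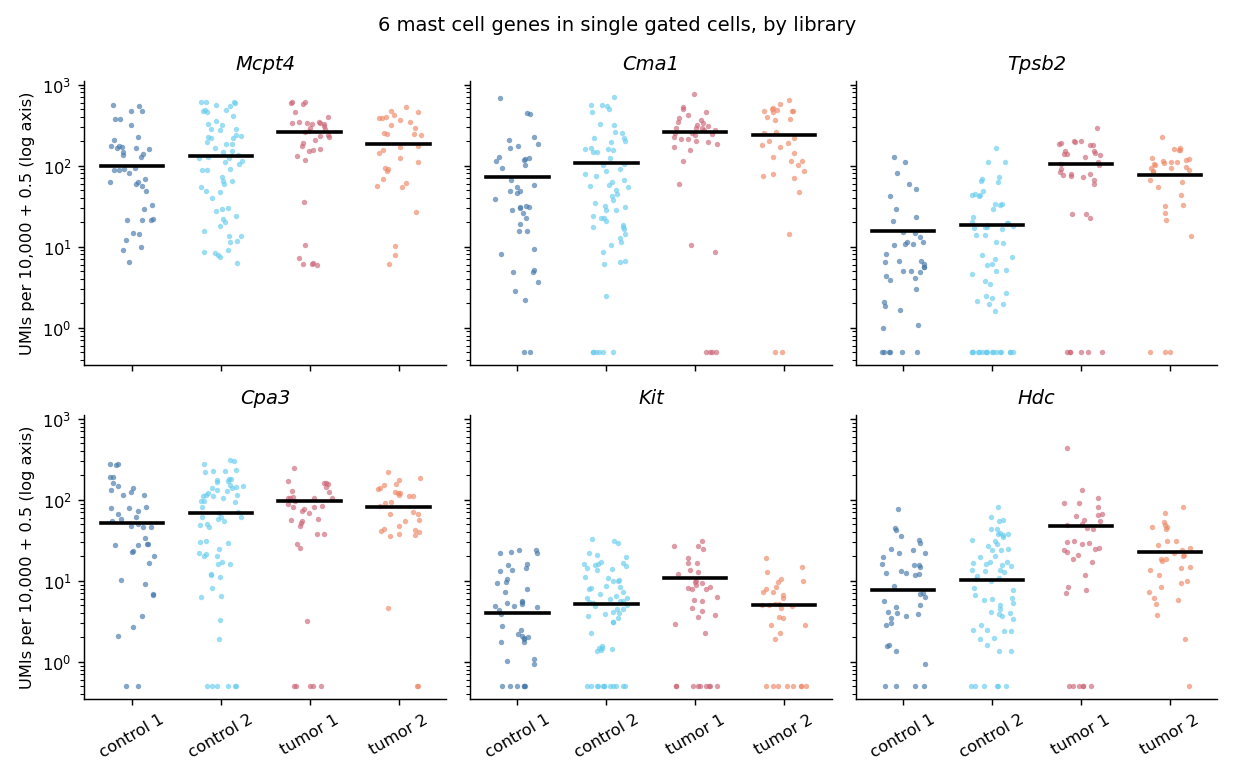
UMIs per 10,000 of 6 genes in each gated mast cell (points; log axis after adding 0.5) and over all gated cells of a library (black bars), for 2 control skins and 2 skin tumors. The Tpsb2 bars lie at 15.1 and 18.0 in the controls and at 105 and 76.1 in skin tumors, while the Kit bar of tumor 2 lies at the height of that of control 2.

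The tryptase Tpsb2 had the largest fitted change of the 6 genes tested. Tryptases of this type form tetramers held together by heparin and cleave peptides and matrix proteins after basic residues. Tpsb2 stood at 15.1 and 18.0 UMIs per 10,000 in the controls and at 105 and 76.1 in skin tumors. Both tumors were several times above both controls (16.6 ± 2.07 against 90.5 ± 20.4). The log2 fold change was 2.73 (SE 0.30, edgeR adjusted p = 0.0170), a fitted 6.63-fold rise beside a ratio of the means of 5.46. The median gated cell held 5.80 and 6.70 UMIs per 10,000 in the controls and 95.5 and 93.1 in skin tumors. After thinning each cell to 1000 UMIs, Tpsb2 was detected in 50.8 ± 1.10% of gated cells in control skin and in 85.4 ± 2.95% in skin tumor, against 0.472 ± 0.227% of T-like cells in skin tumor. At full depth the shares of gated cells were 85.7, 73.4, 83.3 and 90.6% in the 4 libraries, with the 2 controls named before the 2 tumors. Tpsb2 is a gene that the study picked for mast cells on these same samples, so its direction here is not independent evidence.

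Cpa3, a metalloprotease that trims C-terminal residues of peptides and degrades venom toxins and endothelin, was at 51.6 and 68.0 UMIs per 10,000 in the controls and at 95.1 and 80.2 in skin tumors. The tumors lay above the controls without overlap per UMI (59.8 ± 11.6 against 87.6 ± 10.5), but not in counts per gated cell. The difference did not pass the test across all genes (log2 fold change 0.83, SE 0.26, edgeR adjusted p = 0.125). The thinned share of gated cells with a Cpa3 UMI was 79.9 ± 1.89% in control skin and 87.0 ± 5.16% in skin tumor.

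Mcpt8 was nearly missing from gated mast cells. It had 0 and 1 UMIs in the gated cells of control skins and 9 and 0 in those of skin tumors, and did not pass the filter on low counts. A count of 0 allows up to 0.0720 UMIs per 10,000 in control skin 1 and up to 0.184 in skin tumor 2, counting error only. Of 218 Mcpt8 UMIs in all used cells, 192 stood in 1 cell of skin tumor 2, in the mast cell cluster but outside the gate. This cell of 32732 UMIs had 0 Mcpt4 and 1 Tpsb2 UMI beside 215 of Cpa3, 75 of Cma1, 21 of Kit and 22 of Hdc. It also held 18 UMIs of the IgE receptor chain Fcer1a, 15 of Cd200r3, 17 of Cyp11a1 and 0 of the basophil protease Prss34. A second cell with at least 5 Mcpt8 UMIs was found in skin tumor 1, with 5 of Mcpt8, 20 of Hdc and 0 of Mcpt4 and Kit. With 2 such cells, no comparison between the groups is read.

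Kit transcripts differed less between groups than between the tumors. Kit stood at 3.50 and 4.64 UMIs per 10,000 of gated cells in the controls and at 10.3 and 4.60 in skin tumors. Tumor 2 lay within the range of the control skins, so the groups overlapped (4.07 ± 0.801 against 7.45 ± 4.04). The log2 fold change of 1.16 (SE 0.44, edgeR adjusted p = 0.179) did not pass the test. The thinned share of gated cells with a Kit UMI was 47.2 ± 6.16% in control skin and 38.0 ± 5.16% in skin tumor, the opposite direction to the level, so no order is read from it.

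Hdc rose in tumor mast cells in sum, with a wide spread between the tumors. It was at 7.17 and 9.88 UMIs per 10,000 in the controls and at 46.8 and 22.0 in skin tumors. Both tumors lay above both controls (8.53 ± 1.92 against 34.4 ± 17.5). The log2 fold change was 2.30 (SE 0.44, edgeR adjusted p = 0.0397), a fitted 4.93-fold rise beside a ratio of the means of 4.03. In skin tumor 1, 1 cell reached 439 Hdc UMIs per 10,000, and the median cell held 28.4 there and 18.0 in skin tumor 2, against 7.32 and 10.2 in control skins. The thinned share was 55.5 ± 1.05% in control skin and 75 ± 0% in skin tumor.

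Together the 7 genes took 2.47 and 3.38% of the UMIs of gated cells in the controls and 7.79 and 6.07% in skin tumors. Both shares of the tumors were above those of the controls. Gated cells also carried transcripts of other cell types, and those of T cells and Langerhans cells lay mostly in control skin. Cd3e of T cells had 175 and 125 UMIs there and 1 and 1 in skin tumors, Trdc of gamma delta T cells had 292 and 135 against 0 and 1, and Cd207 of Langerhans cells had 214 and 218 against 0 and 0. Over the whole lists, 7 and 8 of 8 T cell markers were found in the controls and 4 and 6 in the tumors, with summed levels of 17.0 and 8.59 UMIs per 10,000 against 0.457 and 1.35. For Langerhans cells 5 and 5 of 5 markers were found against 2 and 3, with 9.69 and 9.91 against 1.30 and 1.23. Both controls also lay above both tumors for the lists of gamma delta T cells, monocytes, cDC1, cDC2, mature DC and B cells. At low levels this held for NK cells, keratinocytes and fibroblasts too. The gamma delta T list stood at 9.33 and 4.19 against 0 and 0.0613, and the monocyte list at 2.18 and 3.36 against 0.391 and 0.920. The Treg, basophil and cycling lists went the other way, with both tumors above both controls. The Treg list stood at 5.90 and 2.61 against 10.2 and 6.01, and the basophil list at 4.87 and 6.02 against 13.8 and 14.97. The list of cycling genes stood at 2.40 and 1.20 against 3.33 and 3.86. The macrophage list stood at 18.1 and 32.4 against 8.94 and 22.8, and the list of dissociation genes at 111 and 102 against 231 and 102. The heat shock gene Hsp90aa1 was at 12.1 and 10.9 against 68.4 and 48.8 (log2 fold change 2.63, SE 0.30, edgeR adjusted p = 0.0170). Fos went the other way, at 20.1 and 14.3 against 7.05 and 2.02 (-1.63, edgeR adjusted p = 0.155). Jun stood at 15.5 and 16.6 against 35.3 and 12.1, so the groups overlapped. Of the 12 dissociation genes 4 passed as higher and 0 as lower, beside 2.63% and 2.26% of all genes tested. The part of these transcripts in the changes of the 7 genes was not tested.

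The genes were also measured in the gated cells of the mast cell cluster. There Tpsb2 stood at 18.7 and 23.5 UMIs per 10,000 in the controls and at 115 and 82.1 in skin tumors, and its rise passed the test (log2 fold change 2.56, SE 0.39, edgeR adjusted p = 0.0256). Cma1 (1.56, SE 0.38, edgeR adjusted p = 0.0763) and Hdc (2.14, SE 0.51, edgeR adjusted p = 0.0731) kept their direction and no longer passed, and the same held when cells were gated by genes outside the list (adjusted p = 0.0973 for Cma1 and 0.103 for Hdc). This choice of cells did not remove the transcripts of other cell types. Cd3e still had 130 and 83 UMIs in the control cells of this cluster and 0 and 1 in the tumor cells. Per 10,000 UMIs of the control cells, Cd207 stood at 4.57 and 4.56, against 5.13 and 5.13 in all gated control cells. Trdc stood at 6.98 and 3.16, against 7.01 and 3.18. Both genes had 0 UMIs in the tumor cells of the cluster. When skin tumor 1 or skin tumor 2 was left out, 0 genes passed in the gated cells in edgeR, beside 885 and 1101 at an unadjusted p under 0.05, and without control skin 1 and control skin 2, 26 and 124 genes passed. Each of these fits has only 1 library in a group, and the estimates stayed between 2.40 and 2.98 for Tpsb2, between 1.49 and 2.05 for Cma1 and between 1.57 and 2.77 for Hdc.

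**Figure D2:**
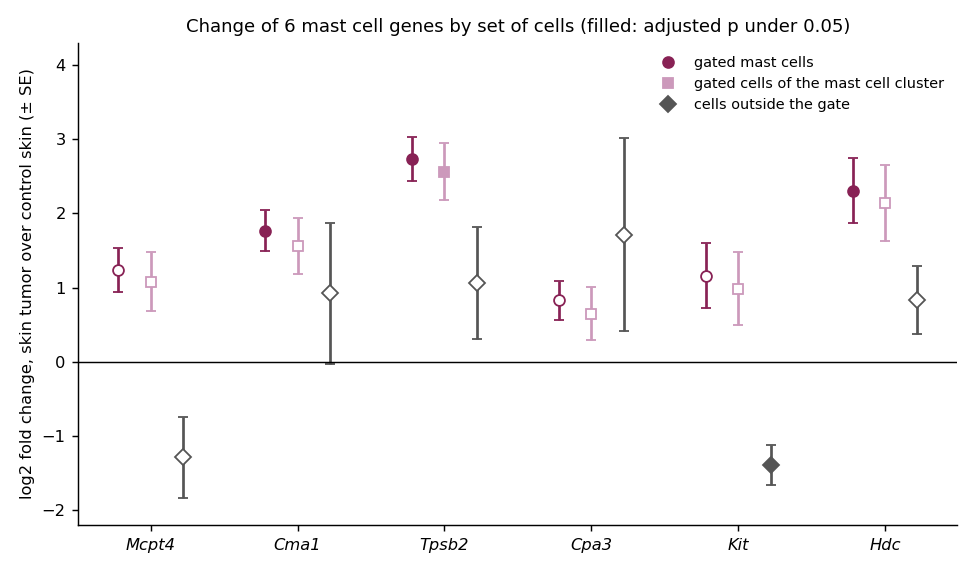
Log2 fold change of 6 genes, skin tumor over control skin, with its SE (vertical bars), in gated mast cells, in the gated cells of the mast cell cluster and in all cells outside the gate. Filled symbols mark an edgeR adjusted p under 0.05. Tpsb2 at 2.73 and 2.56 is filled in both sets of mast cells, and outside the gate only Kit, at -1.39, is.

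The make-up of the protease message changed beside its level per UMI. Per Mcpt4 UMI in gated cells, Tpsb2 had 0.155 and 0.138 UMIs in the controls and 0.406 and 0.410 in skin tumors, with a ratio of the means of 2.79. Cma1 had 0.740 and 0.810 in the controls and 1.01 and 1.29 in skin tumors. Cpa3 went the other way, with 0.529 and 0.519 in the controls and 0.367 and 0.432 in skin tumors. The tumors lay above the controls for Tpsb2 and Cma1 and below them for Cpa3, without overlap in each case, while 2 against 2 libraries allow no smaller permutation p than 0.333. Hdc had 0.0736 and 0.0753 UMIs per Mcpt4 UMI in the controls and 0.181 and 0.119 in skin tumors, and Kit had 0.0359 and 0.0353 against 0.0398 and 0.0248. The Kit values of the tumors stood on both sides of the control skins. Mcpt4 set the gate, so these ratios describe cells chosen by their denominator.

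**Figure D3:**
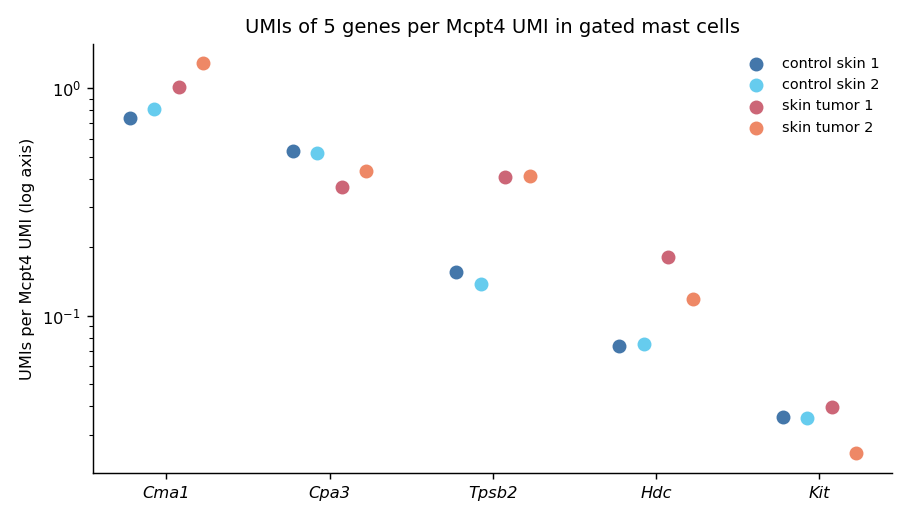
UMIs of 5 genes for each Mcpt4 UMI in the gated cells of each library (points, log axis). The tumors lie at 0.406 and 0.410 for Tpsb2 against 0.155 and 0.138 in control skins, and at 0.367 and 0.432 for Cpa3 against 0.529 and 0.519.

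Spearman's rho between genes was taken over the gated cells of each library, which share library and gate, and is a description. For pairs without Mcpt4, which set the gate, it ranged over the 4 libraries from 0.68 to 0.89 for Cma1 and Cpa3, from 0.63 to 0.78 for Tpsb2 and Cpa3, and from 0.43 to 0.84 for Cma1 and Tpsb2. All gated cells include the 30 outside the mast cell cluster, and over the 36, 50, 30 and 28 gated cells within it the values were lower, at 0.45 to 0.84, 0.37 to 0.71 and 0.22 to 0.80 for the same pairs. Within the cluster Mcpt4 had a rho of 0.71 to 0.89 with Cma1, 0.45 to 0.89 with Cpa3 and 0.36 to 0.78 with Tpsb2. Kit and Hdc had a lower rho to the 4 proteases there, from -0.11 to 0.58 for Kit and from -0.18 to 0.53 for Hdc. Their counts were lower as well, with 576 and 1795 UMIs over all gated cells against 4246 to 16633 for the proteases. Low counts alone can lower rho, so a looser tie is not read from it.

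The 47 profiles of classes and libraries share libraries and include the gated mast cells, which Mcpt4 set apart. Any gene confined to these cells thus reaches a high r, so the likeness is a description. The genes most like a given one by Pearson's r of log2 CPM were other mast cell genes for 4 proteases. They were Ms4a2 (0.97), Cpa3 (0.96) and Ctsg (0.96) for Mcpt4, and Mrgprb1 (0.96), Cpa3 (0.96) and Mrgprb2 (0.96) for Cma1. For Tpsb2 they were Mrgprx2 (0.98), Fcer1a (0.98) and Ctsg (0.98), and for Cpa3 Ms4a2 (0.98), Mrgprb1 (0.97) and Ctsg (0.97). Kit and Hdc had other neighbours: Sec11c (0.76), Ap1s3 (0.75) and Oaz1 (0.72) for Kit, and Erg (0.91), Gm16194 (0.89) and Rab44 (0.85) for Hdc. Those of Mcpt8 (Slc17a4, Gm28626 and Gm14092, 0.89 to 0.90) rest on few UMIs.

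Outside the gate the proteases were found at traces, while Kit and Hdc were not. In the cells outside the gate Mcpt4 stood at 0.0128 and 0.0318 UMIs per 10,000 in the controls and at 0.0101 and 0.0105 in skin tumors. Tpsb2 was at 0.0016 and 0.0066 in the controls and at 0.00769 and 0.0121 in skin tumors. Of the outside cells with a UMI of Mcpt4, Cma1, Tpsb2 or Cpa3, between 87.1 and 88.2% held exactly 1, against 46.7% for Kit and 47.3% for Hdc. The gate held between 94.9 and 99.1% of the UMIs of these 4 proteases in each library, except for Cpa3 in skin tumor 2 with 83.3%. For Mcpt4 the low level outside, the counts per cell and the share follow in part from the gate, which it set. Of Kit it held between 10.9 and 18.9%, and of Hdc between 22.1 and 44.0%.

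A total of 7 cells outside the gate held at least 5 UMIs of a protease. One macrophage-like cell of skin tumor 2 had 37 of Cma1, 29 of Cpa3 and 7 of Tpsb2. Without the 7 cells, Cma1 stood at 0.00799 and 0.0277 UMIs per 10,000 in the controls and at 0.0146 and 0.0270 in skin tumors, and Cpa3 at 0.00559 and 0.0166 against 0.00584 and 0.00497. The groups overlapped for both genes. Tpsb2 per Mcpt4 UMI in these cells was 0.125 and 0.225 in the controls and 0.758 and 1.00 in skin tumors, and Cma1 0.625 and 0.942 against 1.44 and 2.90. The tumors lay above the controls for both ratios, as in gated cells. Cpa3 per Mcpt4 UMI was 0.438 and 0.567 in the controls and 0.576 and 0.533 in skin tumors, which overlapped, unlike in gated cells. Counts behind these ratios were small, with 48, 120, 66 and 30 Mcpt4 UMIs, and the gate caps Mcpt4 in these cells.

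In the fit of all outside cells, Kit was the only one of the 6 genes tested that passed, and Mcpt8 did not pass the filter on low counts. Of all 16341 genes tested there, 23.5% passed in either direction and 14.5% as lower in skin tumor. Kit fell by 1.39 on the log2 scale (SE 0.27, edgeR adjusted p = 0.0316), from 0.318 and 0.284 UMIs per 10,000 in control skins to 0.160 and 0.0998 in skin tumors, without overlap. Mcpt4 was at -1.29 (SE 0.55, edgeR adjusted p = 0.150), which is a description, since the gate caps Mcpt4 in these cells. Further estimates were 0.92 for Cma1 (SE 0.95, edgeR adjusted p = 0.510), 1.06 for Tpsb2 (SE 0.76, adjusted p = 0.350) and 0.83 for Hdc (SE 0.46, adjusted p = 0.241). Cpa3 was at 1.71 (SE 1.30, edgeR adjusted p = 0.376), and at -0.37 without the 1 cell that held most of the Mcpt8. Kit did not pass without control skin 1 (log2 fold change -1.33, edgeR adjusted p = 0.180) or without control skin 2 (-1.47, adjusted p = 0.139). It passed without skin tumor 1 (-1.79, edgeR adjusted p = 0.00422) and without skin tumor 2 (-1.09, adjusted p = 0.0106).

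The T and NK-like cells were fitted together with the Treg-like and gamma delta T-like cells, and 18.8% of 11349 genes passed in either direction. Kit was at -0.88 there (SE 0.26, edgeR adjusted p = 0.0586), Cma1 at 1.41 (SE 0.61, adjusted p = 0.158) and Hdc at -0.79 (adjusted p = 0.367). The other 4 genes were too low to be tested. In macrophage-like cells 0.0% of 12147 genes passed in edgeR, beside 1817 at an unadjusted p under 0.05. Hdc stood at 0.0105 and 0.00708 UMIs per 10,000 of these cells in the controls and at 0.104 and 0.164 in skin tumors. Both tumors were above both controls, and the log2 fold change of 3.76 (SE 0.52) had an edgeR adjusted p of 0.0980. The class joins 3 clusters that the groups fill differently, since cluster 2 held 914 and 112 cells of the tumors and 1 and 5 of the controls. In cluster 7 Hdc was at 0 and 0.0106 UMIs per 10,000 in the controls and at 0.0211 and 0.117 in skin tumors, and in cluster 8 at 0.0139 and 0.00443 against 0.0717 and 0.194, each from at most 2 Hdc UMIs in a control library. Mcpt4 was at -1.50 there, Cma1 at 0.34, Cpa3 at 0.89 and Kit at -0.80, with edgeR adjusted p between 0.390 and 0.910, and Tpsb2 and Mcpt8 were too low to be tested.

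Most Kit transcripts outside the mast cell gate lay in named classes of cells, and 436 of 3717 (11.7%) lay in unnamed clusters. ILC2-like cells, the innate lymphocytes of type 2 responses, held 2.54 and 3.12 Kit UMIs per 10,000 in the controls, in 291 and 216 cells, and skin tumors had 1 and 3 such cells. This level was the next below that of gated mast cells. NK-like cells followed at 0.820 and 1.11 in the controls and 0.981 and 0.442 in skin tumors, which overlapped. cDC1-like cells held 1.44 and 0.720 in skin tumors. In cDC2-like cells Kit was at 0.203 and 0.199 in the controls and at 0.986 and 0.474 in skin tumors, with both tumors above both controls. The class joins cluster 5 with 94, 159, 349 and 83 cells in the 4 libraries, controls first, and cluster 14 with 119, 193, 0 and 5. Cluster 14 has the gamma delta T cell genes Trdc, Tcrg-C1 and Trdv4 among its leading genes beside Cd209a and Cd209d, and its cells held 2.77 times the median UMIs of their libraries. In cluster 5 alone Kit stood at 0.349 and 0.403 in the controls and at 0.986 and 0.430 in skin tumors, so that tumor 2 lay close to control 2, and in cluster 14 it stood at 0.137 and 0.103 in the controls. NK-like, cDC1-like and tumor cDC2-like cells did not differ beyond their spread. T-like cells held 0.0402 and 0.0107 in the controls and 0.102 and 0.205 in skin tumors, with both tumors above both controls. The fit that joins T-like with Treg-like, gamma delta T-like and NK-like cells had Kit at -0.88. The clusters of the T-like class differed between the groups as well. Cluster 11, with 1 and 3 control cells, held Kit at 0.108 and 0.225 in the 276 and 134 cells of the tumors, and in cluster 6 Kit stood at 0.0403 and 0.0111 in the controls and at 0.0389 and 0 in skin tumors. The unnamed cells held 0.207 and 0.215 in the controls, as high as cDC2-like cells there, and 0.0516 and 0.0480 in skin tumors. Most of these UMIs (271) were in cluster 1, which held 507 and 579 control cells and 1 and 15 tumor cells and was led by Zmat4, Kcnma1 and Trdc. Macrophage-like cells held Kit between 0.00999 and 0.0578, and neutrophil-like cells at 0, which allows up to 0.0514 (skin tumor 2) to 0.341 (control skin 1).

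Without the ILC2-like cells, Kit outside the gate stood at 0.154 and 0.156 UMIs per 10,000 in the controls and at 0.159 and 0.0941 in skin tumors, so that the groups overlapped (0.155 ± 0.00144 against 0.127 ± 0.0462). After thinning to 1000 UMIs, Kit was detected in 24.7 ± 3.76% of ILC2-like cells in control skin and in 0.230 ± 0.325% of T-like cells of control skin. In cDC2-like cells of both clusters the thinned share was 2.43 ± 1.44% in control skin and 5.72 ± 3.26% in skin tumor.

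Hdc outside the gate was led by neutrophil-like cells. They held 25.5 and 25.4 UMIs per 10,000 in the controls and 28.7 and 14.1 in skin tumors, in 19, 74, 119 and 122 cells, and between 92.6 and 100% of them had an Hdc UMI. Skin tumor 2 was the lowest and skin tumor 1 the highest, so the groups overlapped. The level was above that of gated mast cells in control skins (7.17 and 9.88) and below that of skin tumor 1 (46.8). Without the neutrophil-like cells, Hdc stood at 0.0419 and 0.0380 in the remaining outside cells of control skins and at 0.115 and 0.140 in skin tumors, without overlap. Monocyte-like cells held 0.0458 and 0.0909 in the controls and 0.166 and 0.154 in skin tumors.

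S100a9, a calprotectin gene abundant in neutrophils, was set beside Hdc in neutrophil-like and macrophage-like cells. Per S100a9 UMI, neutrophil-like cells had 0.0938, 0.0947, 0.118 and 0.0920 Hdc UMIs in the 4 libraries. Macrophage-like cells of the tumors had 9.06 in skin tumor 1, from 281 Hdc and 31 S100a9 UMIs, and 0.174 in skin tumor 2, from 217 and 1245. Both ratios were above that of the neutrophil-like cells of the same library. The source of the Hdc in macrophage-like cells was not tested. In control skins the macrophage-like cells held 2 and 3 Hdc UMIs.

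**Figure D4:**
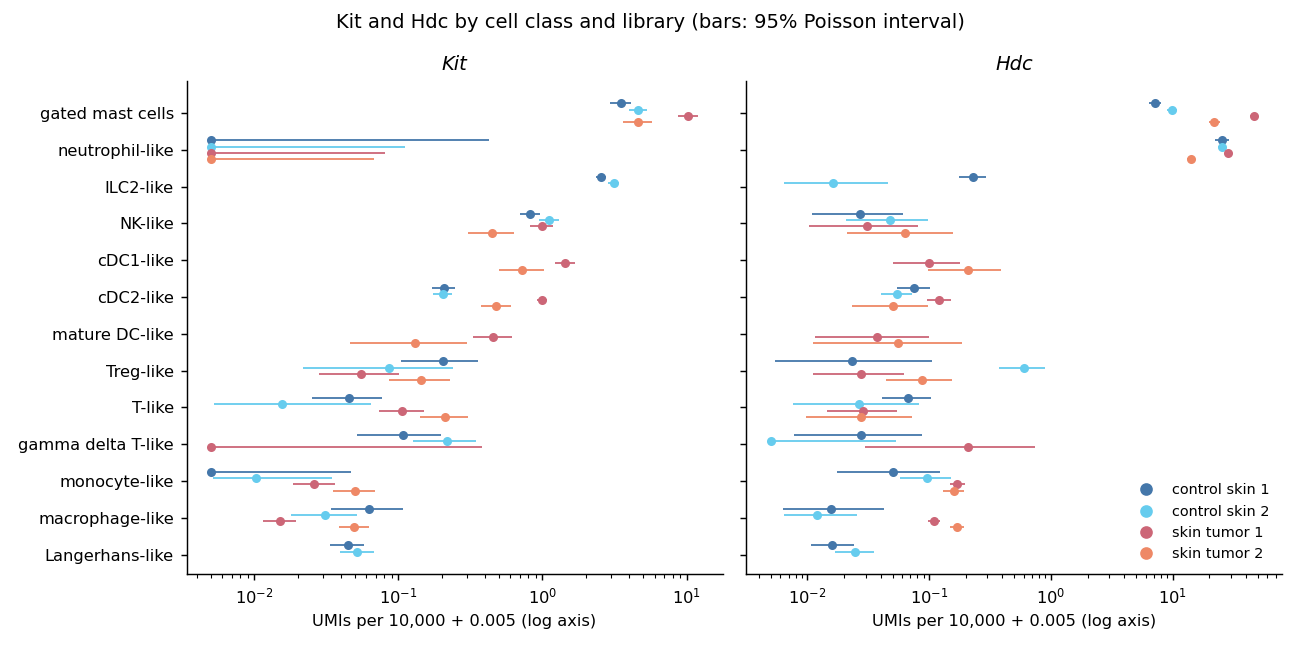
Kit and Hdc by cell class and library as UMIs per 10,000 (log axis after adding 0.005), with 95% Poisson intervals of the counts as bars, for classes with at least 10 cells in a library. ILC2-like cells at 2.54 and 3.12 stand next to gated mast cells for Kit, and neutrophil-like cells at 14.1 to 28.7 stand beside them for Hdc.

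The tumor change of Kit inside the gate was compared with that outside in 1 fit with library as a block. Kit changed by 2.18 more on the log2 scale in gated cells than outside (SE 0.34, edgeR adjusted p = 3.1e-08), and leaving out each library gave 1.84 to 2.43. Inside the gate alone, the Kit change did not pass (edgeR adjusted p = 0.179) and the groups overlapped. Outside the gate the groups overlapped as well once the ILC2-like cells were left out. The fit was not repeated without those cells, so a change in the mix of cells is part of this difference or not was not tested. The p-values of this fit rest on a spread pooled over genes. They do not measure the spread of a single gene between 2 against 2 libraries. Of all 14940 genes, 3.92% passed this test in either direction. Mcpt4 gave 2.10 (SE 0.46, edgeR adjusted p = 0.000293), which fell to 1.59 with an adjusted p of 0.116 without control skin 2, and which involves the gene that set the gate. The differences of Tpsb2 (1.28, edgeR adjusted p = 0.157), Hdc (0.92, adjusted p = 0.175), Cma1 (0.66, adjusted p = 0.745) and Cpa3 (-0.56, adjusted p = 0.844) did not pass. For Mcpt8 the estimate was 0.96 (SE 2.67), and leaving out each library moved it between -13.5 and 8.71. With 192 Mcpt8 UMIs in 1 cell outside the gate, nothing is read from it.

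Other genes of mast cells rose beside the proteases, and 1 fell. Of a list of 81 further mast cell genes, 63 passed the filter on low counts in gated cells, and of these 12 were higher in skin tumor, 1 was lower and 50 did not pass. Their median log2 fold change was 0.61, with 51 of 63 above 0, beside a median of -0.01 and 2169 of 4378 above 0 over all genes tested. Over all 4378 genes tested in gated cells, 2.63% passed as higher and 2.26% as lower. In the gated cells of the mast cell cluster 8 of 61 genes of the list were higher and 1 lower. The percentages above belong to the fit of all gated cells and not to this one. How many of all genes passed in the cluster is given in the section on processing, so these counts are a description.

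Of the 5 further proteases tested, 3 rose. The tryptase Tpsab1 stood at 0.624 and 1.55 UMIs per 10,000 in the controls and at 14.7 and 13.1 in skin tumors (log2 fold change 3.94, SE 0.46, edgeR adjusted p = 0.017). Both tumors were far above the controls. Ctsg, a serine protease of granules, changed by 2.13 (SE 0.34) and the lysosomal protease cathepsin D (Ctsd) by 1.94 (SE 0.30), both with an edgeR adjusted p of 0.027. The transmembrane tryptase Tpsg1 went the other way at -1.03 and did not pass (edgeR adjusted p = 0.0938). Mcpt2, a chymase of mucosal mast cells, was too low to be tested, with 0 and 1 UMIs in the controls and 36 and 4 in the tumors, and Mcpt1 had 1 UMI in all.

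Among 11 receptors tested, 3 rose. Fcer1a, the alpha chain of the high-affinity IgE receptor, was at 1.27 and 4.16 UMIs per 10,000 in the controls and at 27.0 and 17.5 in skin tumors (log2 fold change 3.31, SE 0.59, edgeR adjusted p = 0.035). Il1rl1, the receptor of IL-33, was at 0.960 and 1.39 in the controls and at 10.0 and 8.40 in skin tumors (3.24, SE 0.32, edgeR adjusted p = 0.016). The tumors stood above the controls for both genes, which the study also picked on these samples. Il1rl1 is a marker of ILC2-like cells as well and is among the leading genes of the Treg-like cluster 9. Cd200r3, which is in the basophil list used above as well, changed by 2.08 (SE 0.30, edgeR adjusted p = 0.023). The beta chain gene Ms4a2 did not pass (0.27, edgeR adjusted p = 0.691), nor did the integrin gene Itgam (-0.06, adjusted p = 0.970), which the study lists for mast cells too.

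Of 6 lipid mediator genes tested, Alox5, the first enzyme of leukotriene synthesis, rose by 3.98 on the log2 scale (SE 0.38, edgeR adjusted p = 0.016). Of 12 cytokines and chemokines tested, Il6 rose by 3.60 (SE 0.51, edgeR adjusted p = 0.023). The growth factor gene Areg fell by 4.90 (SE 0.87, edgeR adjusted p = 0.035), with 272 and 122 UMIs in gated cells of the controls against 4 and 0 in those of the tumors, and it is a marker of ILC2-like cells as well. Of 7 genes of granule matrix and amine handling, the vesicular monoamine transporter Slc18a2 rose (1.45, SE 0.28, edgeR adjusted p = 0.040). Serglycin (Srgn) stood at 22.7 and 27.5 UMIs per 10,000 in the controls and at 41.1 and 42.1 in skin tumors and did not pass (edgeR adjusted p = 0.0673).

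Of 14 genes of signalling and exocytosis, the adaptor Lat2 (1.68, SE 0.27, edgeR adjusted p = 0.027) and the granule membrane tetraspanin Cd63 (1.53, SE 0.28, edgeR adjusted p = 0.035) rose. Of 8 transcription factors, Mitf, which drives mast cell development, rose (1.27, SE 0.26, edgeR adjusted p = 0.046), while Gata2 did not pass (0.64, edgeR adjusted p = 0.336). In the gated cells of the mast cell cluster Lat2, Fcer1a, Cd63, Slc18a2 and Mitf no longer passed, with edgeR adjusted p between 0.051 and 0.076, while their log2 fold changes were 1.52, 3.08, 1.42, 1.23 and 1.19.

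**Figure D5:**
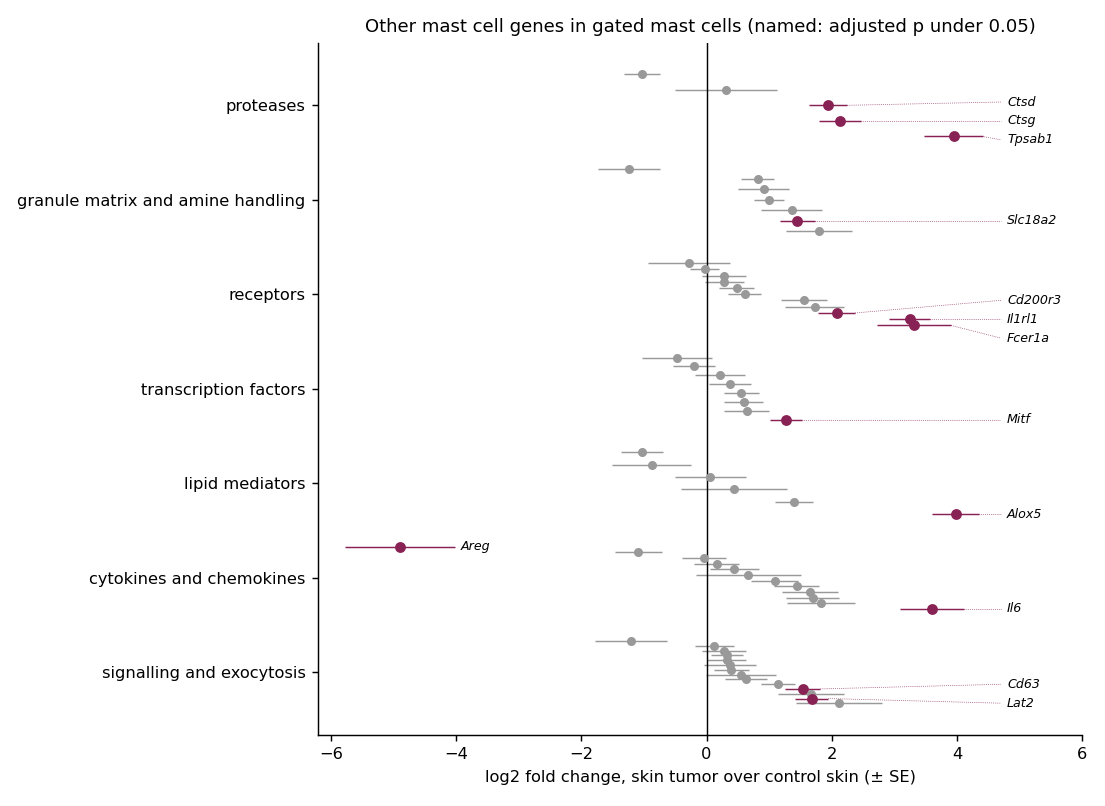
Log2 fold change of the 63 further mast cell genes tested in gated cells, skin tumor over control skin, with SE (horizontal bars), by group of genes. The 13 named genes have an edgeR adjusted p under 0.05, and Areg at -4.90 is the only one of them below 0.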

How the data were processed

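CD45+ cells of 2 control skins and 2 skin tumors were analysed from the UMI counts per gene and cell that the authors deposited, without normalization, as called by Cell Ranger (7.1.0 in the labels and methods, 7.0.1 in the matrix headers) on mm10. How intronic reads were handled is not given in the sources used here. Cells passed with a minimum of 100 genes, 1000 UMIs and a ratio of 0.8 of log10 genes to log10 UMIs, and a maximum of 15% mitochondrial UMIs. An own score against simulated doublets removed 453 cells. GENCODE vM21 held 30934 of the 31053 gene identifiers. Mast cells were gated at 5 Mcpt4 UMIs per 10,000 UMIs. Cells were clustered jointly without integration (2000 variable genes without the 7 genes of the list, 25 principal components, 20 neighbours, Leiden resolution 1.0, 31 clusters). Clusters were named "-like" from marker lists, with naming thresholds set after the clusters had been seen, and 2973 cells outside the gate stayed unnamed.

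The counts of a library were added up over cells and compared by the quasi-likelihood test of edgeR 4.0.16 (TMM, filterByExpr, Benjamini-Hochberg over all genes tested, threshold 0.05). The SE was obtained by dividing the size of the log2 fold change by the root of the F value. In simulated counts of 2 libraries per group, 200 genes changed by 2 on the log2 scale were called with the right sign in 76% (gated cells), 60.5% (outside), 58% (macrophage-like) and 86.5% (T and NK-like). These counts were drawn around 1 mean per gene with the spread that edgeR estimated from the same libraries. Differences in the mix of cells between groups were not simulated, so the shares need not hold for the real libraries. Intervals and limits cover counting error only. The 7 genes, the lists and the gate were chosen with earlier results of these data known. Named are the 7 genes, called genes of the mast cell list, genes that the study names for mast cells and the 3 genes most like each of the 7. A few others were named after their values were seen (Tpsg1, Srgn, Mcpt1, Mcpt2, Hsp90aa1, Fos, Jun and markers of other cell types). Alternatives were other gates, filters, scalings and doublet settings, DESeq2 1.42.0, a replicate block and leaving out each library. Cell sets drawn from the mast cell cluster, the fit that compares the change inside and outside the gate, outside cells without single cells or classes, levels by cluster and correlations within the mast cell cluster were added after seeing the data. The authors' depth equalisation, Harmony and scDblFinder were not used here. The alleles of the model behind the 2323 line are not reported here.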

Additional observations from a re-analysis of the deposited data

Results flagged for a closer look

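Kit was singled out because its tumor change differed between gated mast cells and the cells outside the gate, by 2.18 on the log2 scale (edgeR, library as block and spread pooled over genes, adjusted p = 3.1e-08). It stood higher in tumor 1 than in both control skins inside the gate and lower in both tumors outside it, where ILC2-like cells numbered 291 and 216 in the controls against 1 and 3 in the tumors. Without the ILC2-like cells the Kit levels of the groups overlapped outside the gate, and the difference was not fitted for that set.

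Mcpt4 was singled out for the same reason, with a difference of 2.10 (edgeR adjusted p = 0.000293, and 0.116 without control skin 2). Mcpt4 set the gate, so this is a description.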

How the results depend on the processing

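The estimates of Tpsb2, Cma1, Hdc, Cpa3 and Kit in gated cells were above 0 in all 15 alternatives. Tpsb2 passed in all 11 that kept every library and in 1 of the 4 that left one out (edgeR adjusted p from 0.031 to 0.332 there), Cma1 and Hdc in 7 of 15 each, Cpa3 and Kit in 0. Kit outside the gate passed in 11 of 13, with estimates between -1.79 and -1.09.

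In gated cells 214 genes passed, 115 higher and 99 lower. Leaving out each library gave 0 to 124 genes, 0 to 48 higher and 0 to 76 lower. All deposited cells gave 369 (176 higher, 193 lower), no removal of doublets 329 (168 lower), no filter on low counts 137 (64 higher), and the gate by genes outside the list 76 higher. The gated cells of the mast cell cluster gave 124 (69 higher, 55 lower) and the whole cluster 123 (66 higher, 57 lower).

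Leaving out each library gave 0 to 5992 genes outside the gate against 3842, 0 to 2107 in macrophage-like cells against 0, and 491 to 3113 in T and NK-like cells against 2128. Scaling by library size alone gave 47 genes in macrophage-like cells. The difference of the Cpa3 change inside and outside the gate kept its sign in 3 of 6 alternatives. It was -2.40 without skin tumor 1 (edgeR adjusted p = 4.1e-06), 1.64 without skin tumor 2 (adjusted p = 0.0330), 0.02 without control skin 1 and 0.86 without the 1 cell that held most of the Mcpt8 (edgeR adjusted p = 0.449). For the share of gated cells the difference between groups ranged from -1.005 to -0.157 percentage points. The causes were not tested, except that leaving out a library also leaves fewer samples.

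The labels do not say whether libraries with the same replicate number were processed together. The differences between replicates 1 and 2 of both groups correlated by 0.0889 in gated cells, which cannot decide whether the libraries are paired. With a replicate block 324 genes passed in gated cells (168 lower) and 2457 outside the gate. Depth limits low genes most, with 153286 UMIs in the smallest gated set.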
